A study of Mus musculus with 18 samples.

Results

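The difference in endothelial enrichment between choroid and brain was measured as an interaction of tissue and fraction: the log2 ratio of Positive over Input in Choroid minus the log2 ratio of Positive over Input in Brain. The interaction was fitted to 12 of the study's 18 libraries and to the 7461 genes that both tissue tables list, out of 7569 genes listed for Choroid and 13957 for Brain. The groups were Choroid Positive, Choroid Input, Brain Positive and Brain Input, with 3 libraries in each. Every library came from tamoxifen-induced mice of genotype Cdh5(PAC)-cre/ERT2+; NuTRAP+, whose age and sex the labels do not give, and no group lacked the recombinase. In these mice an inducible Cre driven by regulatory sequence of the Cdh5 gene, which encodes vascular endothelial cadherin, switches on a reporter that places GFP on ribosomal protein L10a. Positive is the RNA that came down with an antibody against GFP, and Input is RNA kept from the homogenate before the pull-down. The labels name the libraries biological replicates and give no number of animals per library. P-values therefore reflect only how these samples scatter, part of which may be technical.

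Capillaries of the brain form the blood-brain barrier, with sealed junctions, few vesicles and a dense set of nutrient and efflux transporters, and they acquire these traits under Wnt signals from neural cells. The capillaries of the choroid, the choriocapillaris, lie beneath the retinal pigment epithelium and are fenestrated: their wall is pierced by pores that a diaphragm of the protein Plvap closes. Translating ribosome affinity purification reads a gene's level on tagged ribosomes, and setting it against Input asks how far the gene stands out from its own tissue.

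The interaction also equals the Choroid over Brain difference between Positive fractions minus the Choroid over Brain difference between Input fractions. A gene can therefore be higher in Choroid Positive than in Brain Positive and still have a negative interaction, where its Input difference is larger. Both terms are given below where they differ. The 2 tables were filtered separately by the authors, so levels set across tissues hold only for genes that passed in both. In bulk RNA, fewer cells of a type and less RNA per cell cannot be told apart.

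Over the shared genes, estimated counts summed to between 710843 and 2703980 per library in Choroid Positive, 1955756 and 9703565 in Choroid Input, 27022459 and 34881136 in Brain Positive, and 22566038 and 34403538 in Brain Input. Choroid Positive replicate 2 stood apart: it had the smallest total, 13.1% of its counts in Rn45s (precursor ribosomal RNA) against at most 1.10% in any other library, and 39 genes at 0 against at most 2 elsewhere. Of the 7461 genes, 4341 had met the authors' minimum of 50 in Choroid through the Input libraries alone, 134 through the Positive libraries alone and 2986 through both. The pan-endothelial markers took 2.33% to 3.42% of the counts of shared genes in Choroid Positive and 0.340% to 0.598% in Choroid Input, against 1.10% to 1.14% in Brain Positive and 0.0568% to 0.0632% in Brain Input. Positive stood above Input for these markers in both tissues.

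Cdh5 itself, the gene whose regulatory sequence drives the recombinase (chr8:104101625-104144502, plus strand), had 1670.4, 1161 and 1459 CPM in Choroid Positive and 212, 106 and 229 CPM in Choroid Input libraries, against 366, 394 and 363 CPM in Brain Positive and 12.4, 12.9 and 14.2 CPM in Brain Input libraries. Levels are CPM, the counts of a gene relative to the library total after TMM scaling. Positive lay above Input in both tissues with no overlap, and both Choroid fractions lay above their Brain counterparts. Positive over Input was 2.96 ± 0.24 in Choroid, against 4.83 ± 0.26 in Brain, on the log2 scale (here and below ± is the SE of the fitted value). The interaction was -1.86 ± 0.32 (adjusted p = 0.00027, edgeR's quasi-likelihood test, which gives all adjusted p-values below). The Choroid over Brain difference was 1.94 ± 0.23 between Positive fractions and 3.80 ± 0.25 between Input fractions. Rpl10a, which encodes the ribosomal protein that carries the tag, had like ratios, at 1.92 ± 0.13 in Choroid and 1.89 ± 0.12 in Brain, with an interaction of 0.03 ± 0.17 (adjusted p = 0.9). With the authors' own scaling factors the Rpl10a value was -0.45 and passed the threshold.

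Of the 7461 genes, 3591 (48.1%) had a call at an adjusted p under 0.05: 1670 (22.4%) had a higher and 1921 (25.7%) a lower Positive over Input ratio in Choroid than in Brain. The median over all genes was 0.03. Counts of list members below are to be set against these shares, and a count near them is no result about a list. The 3 same-numbered Positive minus Input differences in Choroid also all lay on the same side of the 3 in Brain for 1601 of the higher genes (21.5% of the 7461) and 1868 of the lower genes (25%). Positive over Input alone changed for 4013 genes (53.8%) in Choroid, where 1997 (26.8%) rose and 2016 (27%) fell, and for 4356 (58.4%) in Brain, where 1978 (26.5%) rose and 2378 (31.9%) fell. Under the authors' factors the median of the interaction moved by -0.453, and the calls split into 680 higher and 2837 lower, 19.3% higher against 46.5% in the fit reported. Library totals without TMM gave 1080 higher and 2309 lower, 31.9% higher. Testing for a difference of more than 2-fold with glmTreat gave 333 higher and 993 lower, 25.1% higher. No gene called in the fit reported was called in the opposite direction in any of the settings tried.

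The calls fell into a few patterns. Among the lower genes, 465 fell in Choroid and rose in Brain, 393 rose in Brain without a call in Choroid, 396 fell in Choroid without a call in Brain, 362 rose in both with the smaller ratio in Choroid, and 275 fell in both with the stronger fall in Choroid. Among the higher genes, 621 fell in Brain without a call in Choroid, 493 rose in Choroid without a call in Brain, 341 rose in Choroid and fell in Brain, 114 rose in both with the larger ratio in Choroid and 40 fell in both with the weaker fall in Choroid. Another 443 genes rose in both tissues and 629 fell in both without a call for the difference.

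**Figure D1:**
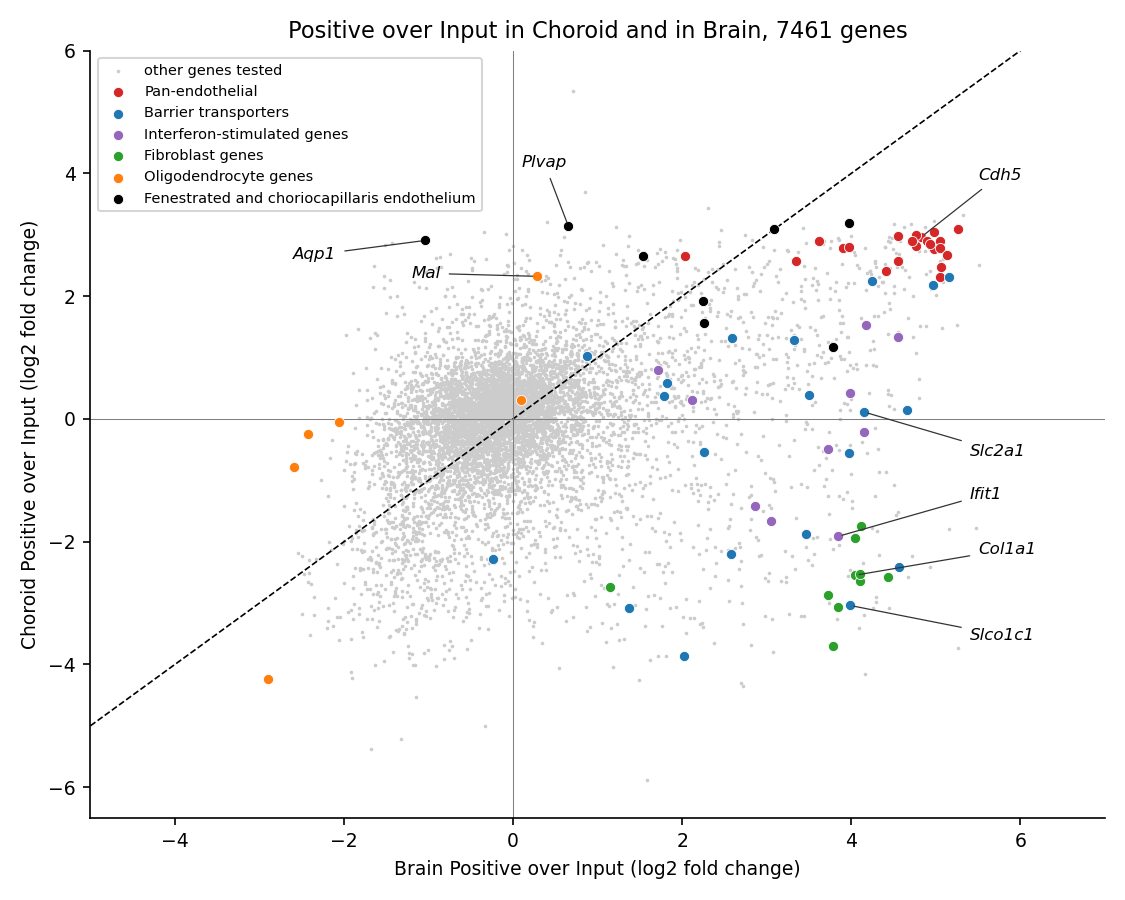
Positive over Input in Choroid (vertical) against Brain (horizontal), log2 fold changes of the 7461 shared genes, 1 point per gene. The dashed line marks equal ratios, and colours mark members of 6 gene lists. Pan-endothelial genes sit at the right, most of them below the line, fibroblast genes at the lower right, and Plvap and Aqp1 above the line.

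Genes that mark all endothelium were enriched in both tissues and less so in Choroid. All 22 measured pan-endothelial genes rose in Positive in Choroid and in Brain, with medians of 2.81 in Choroid and 4.80 in Brain on the log2 scale. The interaction was lower for 20 of the 22 and higher for 1, with a median of -1.96 against 0.03 over all genes. The median Choroid over Brain difference was 1.64 between Positive fractions and 3.63 between Input fractions. Emcn, the sialomucin endomucin, had the lowest value of the list. It had 1987, 2039 and 2023 CPM in Choroid Positive and 457, 280.1 and 483 CPM in Choroid Input libraries, against 212, 204 and 209.9 CPM in Brain Positive and 6.88, 6.197 and 5.88 CPM in Brain Input libraries. Choroid Positive was far above Brain Positive, and Choroid Input stood higher still over Brain Input, so the interaction was -2.74 ± 0.25 (adjusted p = 8.7e-07). Eltd1, an adhesion receptor also named Adgrl4, followed at -2.59 ± 0.27, the transcription factor Erg at -2.46 ± 0.25, and Pecam1, which encodes the junctional protein CD31, at -2.15 ± 0.28.

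S1pr1, the receptor for sphingosine 1-phosphate, was the higher member at 0.63 ± 0.22 (adjusted p = 0.031). It was chosen for mention after its values were seen, as were all list members named below as exceptions to a list's direction. Its call held in 12 of 26 other settings and was lost in the rest, among them the authors' factors, where it was 0.18 with adjusted p = 0.605. Sox7 was the member without a call (-1.12 ± 0.54, adjusted p = 0.1). Sox17 was listed for Brain alone and did not enter.

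**Figure D2:**
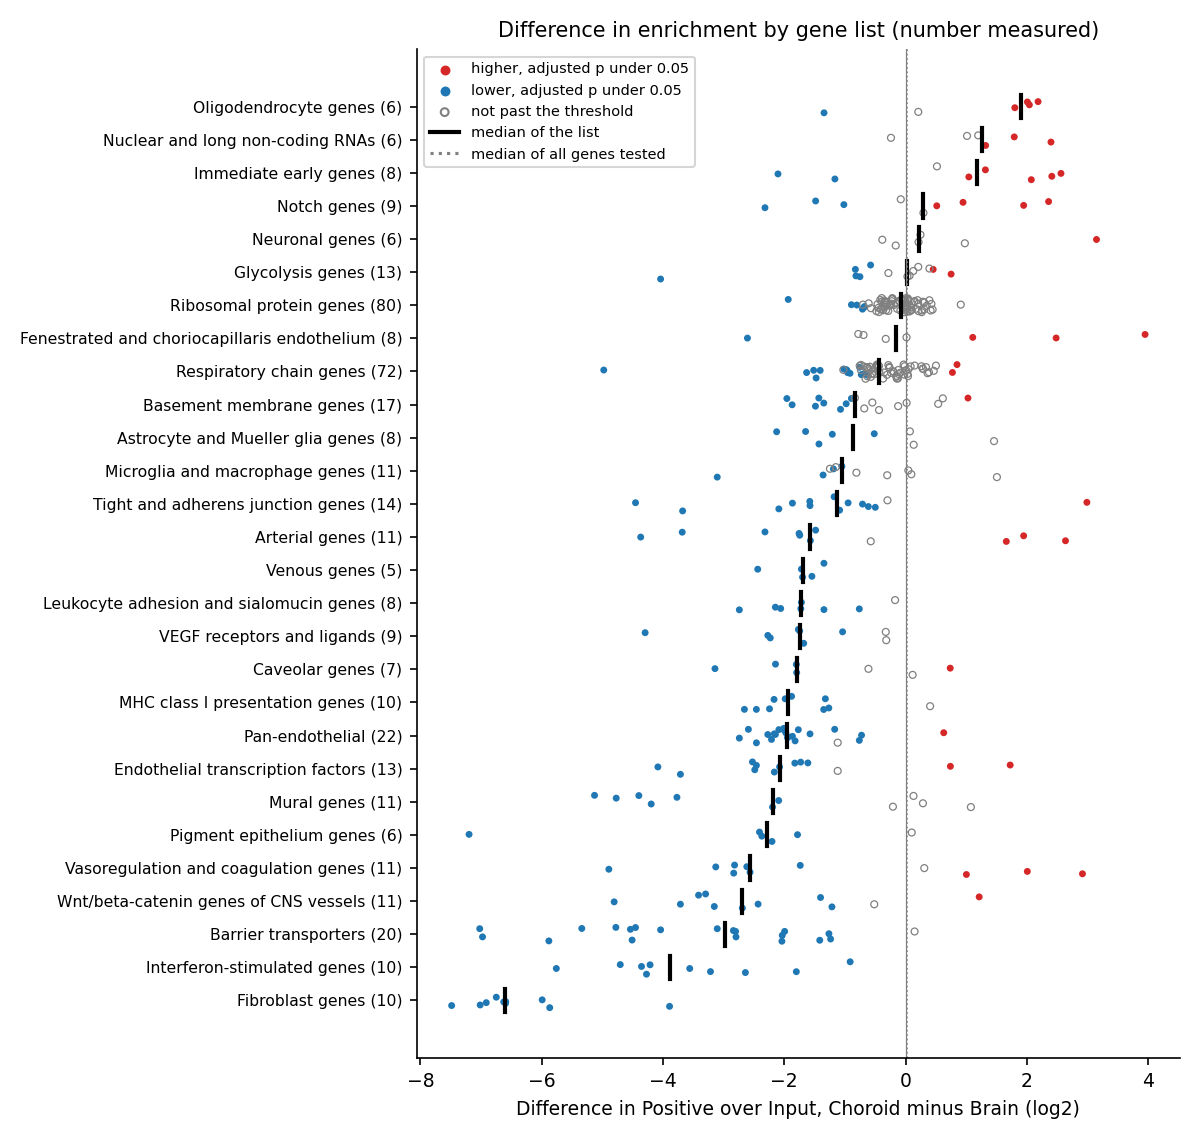
Interaction (Positive over Input, Choroid minus Brain, log2) of every measured member of 28 gene lists, ordered by the list median. Red and blue points passed the threshold above and below 0, open points did not, black bars are list medians and the dotted line is the median of all genes. Fibroblast, interferon-stimulated and barrier transporter genes lie farthest to the left, and oligodendrocyte genes have the largest positive median.

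Genes of fenestrated capillaries were mixed. Of 8 measured members, all 8 rose in Positive in Choroid and 7 rose in Brain. The interaction was higher for 3, lower for 1 and without a call for 4. With 48.1% of all genes called, that count is not read as a result about the list. The median was -0.16. Among the 6 members at 50 or more in all 12 libraries it was 0.46, with 3 higher and 1 lower. Under the authors' factors 2 were higher and 3 lower, with a median of -0.62, so the balance of higher and lower members depends on the scaling. Plvap, which forms the diaphragms of fenestrae (chr8:71497753-71511769, minus strand), had 10423, 10256 and 8896 CPM in Choroid Positive and 1359, 669.7 and 1326 CPM in Choroid Input libraries, against 51.4, 41.8 and 44.01 CPM in Brain Positive and 37.8, 25.6 and 23.9 CPM in Brain Input libraries. Every Choroid library was far above every Brain library. Positive over Input was 3.14 ± 0.27 in Choroid, against 0.66 ± 0.25 in Brain, an interaction of 2.48 ± 0.35 (adjusted p = 5.5e-05). The Choroid over Brain difference was 7.75 ± 0.33 between Positive fractions and 5.27 ± 0.29 between Input fractions.

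Aqp1, a water channel (chr6:55336299-55348555, plus strand), had 4545, 2910.3 and 4372 CPM in Choroid Positive and 659.9, 239.8 and 671 CPM in Choroid Input libraries, against 4.93, 2.92 and 7.02 CPM in Brain Positive and 12.4, 7.45 and 10.9 CPM in Brain Input libraries. Positive exceeded Input in all Choroid pairs, and Input exceeded Positive in all Brain pairs. The ratio rose in Choroid (2.91 ± 0.38) and fell in Brain (-1.04 ± 0.38, adjusted p = 0.03), an interaction of 3.95 ± 0.54 (adjusted p = 3.6e-05). Ehd4, which encodes a protein of membrane recycling, was higher at 1.11 ± 0.28 (adjusted p = 0.0053), and under the authors' factors it was 0.65 without a call. Vwa1, an extracellular matrix protein, was lower at -2.61 ± 0.30.

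Esm1, Car4, Nrp1 and Igfbp3 had no call for the difference. Esm1, a proteoglycan secreted by endothelium, had 663, 875 and 787 CPM in Choroid Positive and 105, 56.7 and 87.8 CPM in Choroid Input libraries, against 8.75, 8.65 and 8.48 CPM in Brain Positive and 0.8703, 0.322 and 0.514 CPM in Brain Input libraries, an interaction of -0.78 ± 0.37 (adjusted p = 0.098). Its levels in Choroid were far above those in Brain in either fraction, by 6.48 ± 0.26 in Positive and 7.26 ± 0.31 in Input. Under the authors' factors Esm1 (-1.25) and Nrp1 (-0.79) passed as lower. Without replicate 2 of both Choroid fractions Esm1 passed as lower at -1.18, and 3 members of the list were lower in place of 1. The lipid-handling genes Gpihbp1 and Cd36 were listed for Choroid alone and did not enter.

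**Figure D3:**
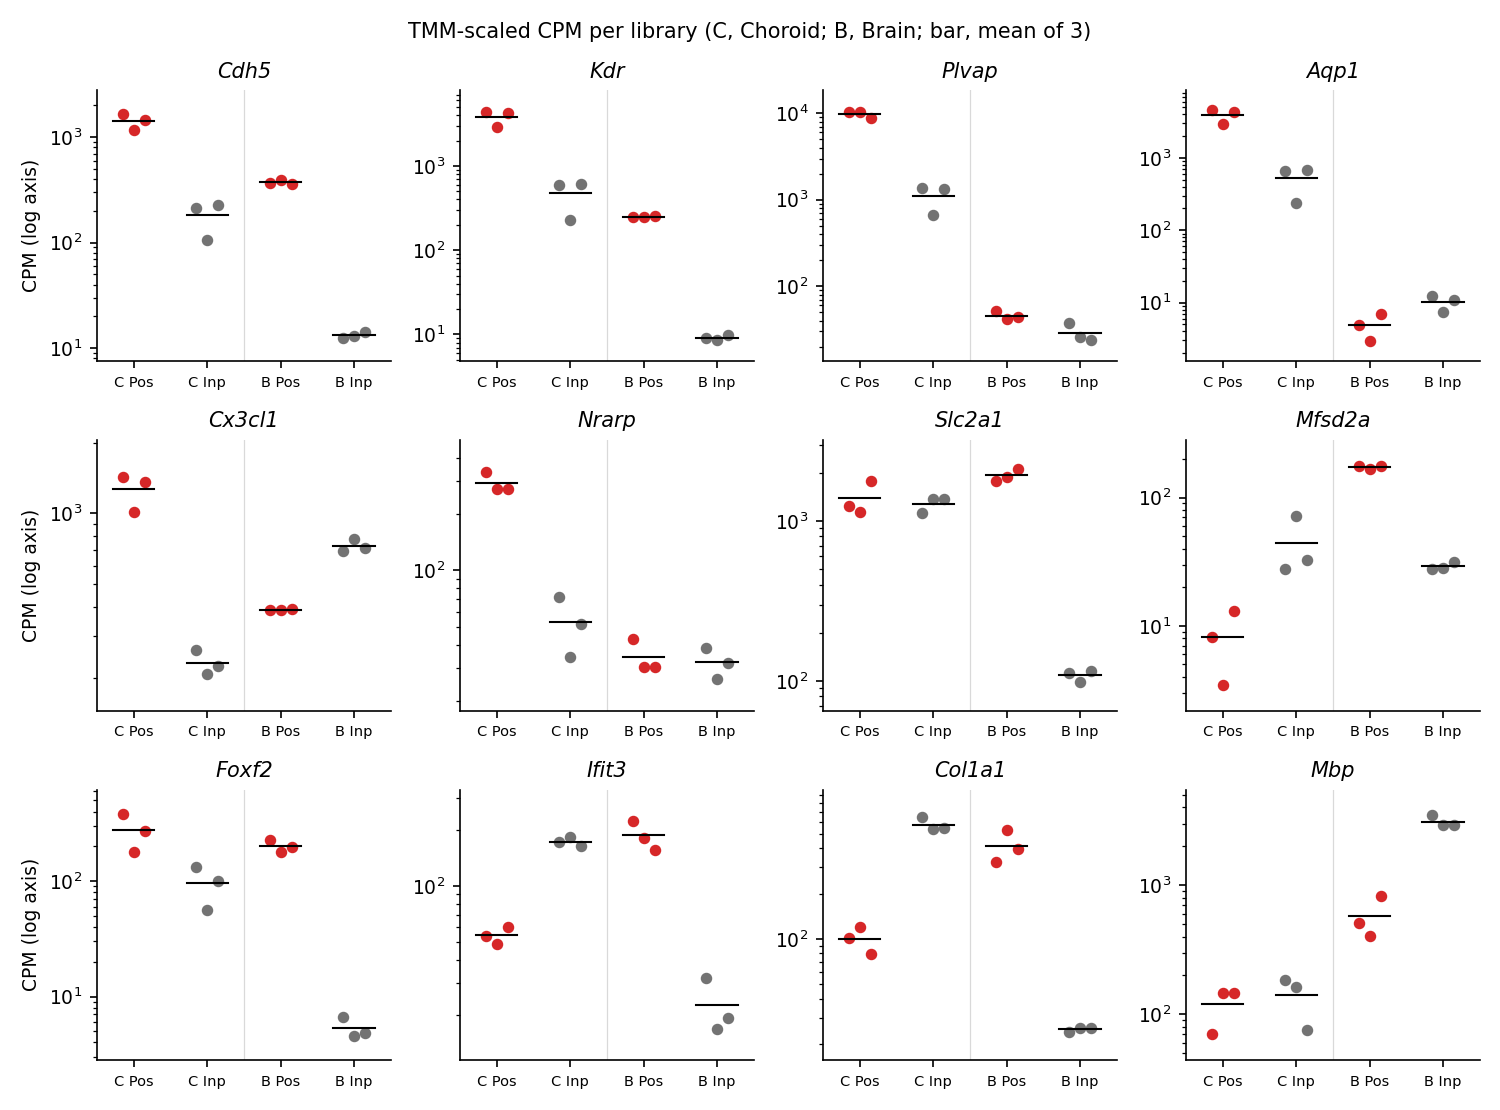
TMM-scaled CPM on a log axis for 12 genes in each of the 12 libraries, with Choroid Positive, Choroid Input, Brain Positive and Brain Input from left to right and bars at the mean of 3. Plvap, Aqp1, Cx3cl1 and Nrarp exceed Input in Choroid Positive by more than in Brain. Slc2a1 and Foxf2 exceed Input more in Brain, and Mfsd2a, Ifit3 and Col1a1 lie below Input in Choroid Positive and above it in Brain Positive.

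Of 20 measured transporters of the blood-brain barrier, 19 were lower and 0 higher, with a median of -2.97. In Brain 19 of the 20 rose, with a median of 3.39. In Choroid 7 rose and 9 fell, with a median of 0.13. Slc2a1, the glucose transporter GLUT1 (chr4:119108745-119137329, plus strand), had 1243, 1140.3 and 1785 CPM in Choroid Positive and 1124, 1363 and 1372 CPM in Choroid Input libraries, against 1787, 1879.8 and 2119 CPM in Brain Positive and 112, 98.5 and 115 CPM in Brain Input libraries. The Choroid fractions overlapped, and the Brain fractions were well apart. Positive over Input was 0.11 ± 0.17 in Choroid, against 4.15 ± 0.19 in Brain, an interaction of -4.04 ± 0.25 (adjusted p = 2.8e-08). Between Positive fractions Choroid over Brain was -0.47 ± 0.17, and between Input fractions it was 3.57 ± 0.19.

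Mfsd2a, the lysophosphatidylcholine carrier that keeps transcytosis low in brain capillaries, had 8.16, 3.45 and 13.2 CPM in Choroid Positive and 27.8, 72.1 and 32.7 CPM in Choroid Input libraries, against 176, 167 and 178 CPM in Brain Positive and 27.7, 28.1 and 31.4 CPM in Brain Input libraries. It was below Input in all Choroid pairs and above it in all Brain pairs, an interaction of -4.78 ± 0.47 (adjusted p = 1.9e-06). Slco1c1, the thyroxine transporter OATP1C1, had 33.8, 41.4 and 38.8 CPM in Choroid Positive and 292, 323 and 303 CPM in Choroid Input libraries, against 1098, 882 and 899 CPM in Brain Positive and 63.4, 62.2 and 56.4 CPM in Brain Input libraries, an interaction of -7.02 ± 0.21. Slc22a8, the organic anion transporter OAT3, was lower at -6.98 ± 0.36, and fell in Choroid (-2.41 ± 0.27) and rose in Brain (4.56 ± 0.26).

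The efflux pumps Abcb1a (P-glycoprotein) and Abcg2 rose in both tissues, with smaller ratios in Choroid: 2.18 ± 0.23 against 4.97 ± 0.25 for Abcb1a, and 2.25 ± 0.26 against 4.25 ± 0.27 for Abcg2. The zinc transporter Slc39a10 was the member without a call at 0.15 ± 0.36. In Choroid, 8 of the 20 had met the authors' minimum through Input alone. Each of these had to be under 50 in at least 1 Choroid Positive library, and replicate 2 had the smallest total there. Neither the count of 19 nor the median is therefore read as support for the list. Among the 10 members at 50 or more in all 12 libraries, 9 were lower and 0 higher, with a median of -2.52. Cells of the pigment epithelium carry several of the same transporters. Of the 6 measured genes of that list 5 fell and 0 rose in Choroid, while in Brain 1 rose and 4 fell. The summed share of the list was 0.0672% to 0.0738% in Choroid Positive and 0.537% to 1.05% in Choroid Input. In Brain it was 0.0255% to 0.0268% in Positive and 0.00802% to 0.00919% in Input, although most members fell there. The part of this epithelium in the transporter result was not tested.

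Junction genes followed the same direction with smaller values. Of 14 tight and adherens junction genes, 12 were lower and 1 higher, with a median of -1.13. Lsr, which encodes the tricellular junction protein angulin 1, had 42.7, 74.2 and 53.2 CPM in Choroid Positive and 26.3, 69.2 and 35.9 CPM in Choroid Input libraries, against 359.6, 351 and 319 CPM in Brain Positive and 14.1, 11.8 and 11.03 CPM in Brain Input libraries, an interaction of -4.45 ± 0.40 (adjusted p = 8.4e-07). The Choroid fractions overlapped and the Brain fractions did not. Ocln (occludin) was lower at -3.68 ± 0.48 and Cldn5 (claudin 5) at -2.09 ± 0.23. The Cldn5 levels of the Positive fractions overlapped, at 1634, 1675 and 1670.1 CPM in Choroid Positive, against 1927, 1769.6 and 1586 CPM in Brain Positive. Its Input libraries differed, at 249, 234 and 210.5 CPM in Choroid and 74.02, 48.2 and 50.6 CPM in Brain. Cgn (cingulin) was the exception at 2.99 ± 0.84 (adjusted p = 0.0091): it was 1.70 ± 0.61 in Choroid, against -1.29 ± 0.57 in Brain. Ctnnb1 (beta-catenin) had no call at -0.30 ± 0.21.

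Genes of the Wnt pathway of CNS vessels were lower for 9 of 11 measured and higher for 1, with a median of -2.69. All 11 rose in Brain, and 5 rose and 1 fell in Choroid. The receptor complex that reads Norrin and WNT7 was split. Its receptor Fzd4 had 242, 67.3 and 212 CPM in Choroid Positive and 145, 121 and 182 CPM in Choroid Input libraries, against 46.8, 55.1 and 57.9 CPM in Brain Positive and 4.96, 4.44 and 4.11 CPM in Brain Input libraries. The Choroid fractions overlapped, with the lowest Positive value in replicate 2, and the interaction was -3.30 ± 0.44 (adjusted p = 3.0e-05). The WNT7 coreceptors Gpr124 and Reck were lower at -3.15 ± 0.39 and -2.69 ± 0.30, and Lrp5 at -1.40 ± 0.38. Tspan12, the tetraspanin that assists Norrin signalling, was higher at 1.21 ± 0.34 (adjusted p = 0.0089), and was 0.76 without a call under the authors' factors. Lrp6 had no call at -0.52 ± 0.37.

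The Wnt target Apcdd1 had 12.04, 13.8 and 14.4 CPM in Choroid Positive and 16.8, 39.3 and 7.85 CPM in Choroid Input libraries, against 519.5, 504 and 527 CPM in Brain Positive and 26.1, 22.7 and 29.1 CPM in Brain Input libraries, an interaction of -4.81 ± 0.57. Its Choroid fractions overlapped at low levels, and Brain Positive was far above all other groups. The target Axin2 was lower at -1.21 ± 0.30. Lef1, Tcf7, Notum, Sox17 and Foxq1 were among the members listed for Brain alone. In Choroid 5 of the 11 measured members had met the minimum through Input alone, and of the 5 at 50 or more in all 12 libraries 4 were lower and 0 higher.

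Of 13 endothelial transcription factors, all rose in both tissues, and 10 were lower and 2 higher, with a median of -2.08. Foxc1 had 133, 121 and 135 CPM in Choroid Positive and 121, 86.6 and 89.8 CPM in Choroid Input libraries, against 207, 239.8 and 222 CPM in Brain Positive and 10.6, 9.12 and 10.4 CPM in Brain Input libraries. Choroid Positive was close to Choroid Input and below Brain Positive, an interaction of -4.08 ± 0.22 (adjusted p = 7.7e-09). Foxf2 was lower at -3.71 ± 0.42, with 1.54 ± 0.29 in Choroid against 5.25 ± 0.33 in Brain. The flow-responsive factors Klf2 and Klf4 were lower at -2.49 ± 0.29 and -2.52 ± 0.45. The ETS factor Ets2 was higher at 1.73 ± 0.19 (adjusted p = 6.4e-06), and Foxo1 at 0.74 ± 0.21, which was 0.28 without a call under the authors' factors. Another 9 factors of the list, among them Mecom, Hhex, Foxq1 and Tal1, were listed for Brain alone.

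**Figure D4:**
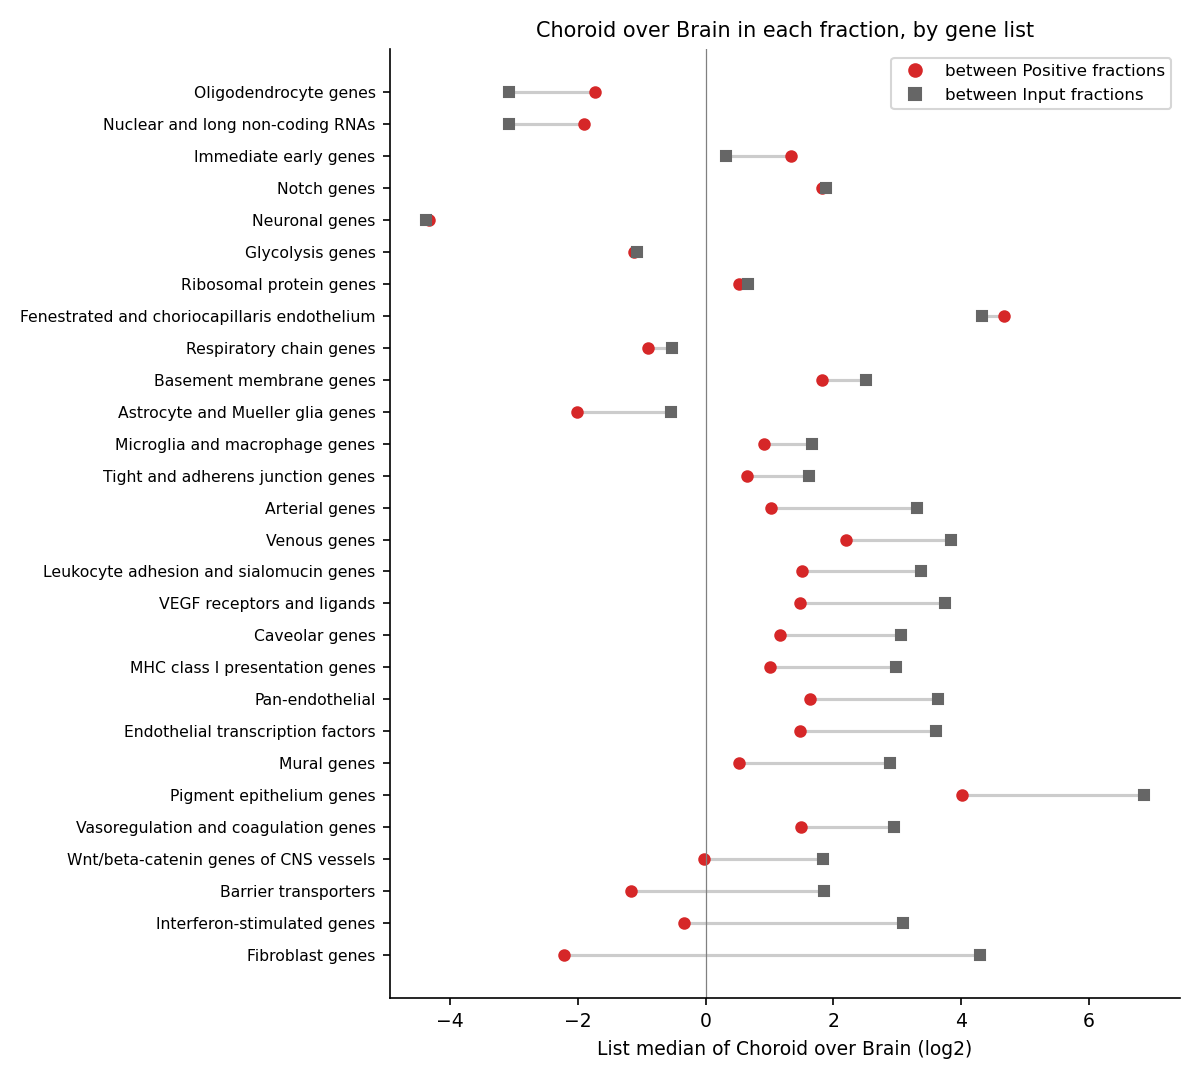
List medians of the Choroid over Brain difference (log2) between Positive fractions (red circles) and between Input fractions (grey squares), for 28 gene lists in order of their interaction. For pan-endothelial genes both medians are above 0 and Input is farther right. For fibroblast genes the medians lie on opposite sides of 0, at -2.21 in Positive and 4.30 in Input.

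Along the arteriovenous axis the genes did not move as a block. Of 11 arterial genes 7 were lower and 3 higher, with a median of -1.57. Among the 4 arterial genes at 50 or more in all 12 libraries, 3 were lower and 1 higher, with a median of -2.83. All 5 measured venous genes were lower, with a median of -1.70. Unc5b, a netrin receptor, was higher at 2.64 ± 0.34 (adjusted p = 2.2e-05), at 2.75 ± 0.26 in Choroid against 0.11 ± 0.22 in Brain. The Notch target Hey1 was higher at 1.95 ± 0.41 and the ligand Efnb2 (ephrin B2) at 1.66 ± 0.33. The matrix genes Fbln5 (fibulin 5) and Mgp (matrix Gla protein) had the lowest arterial values, -4.37 ± 0.27 and -3.68 ± 0.27. Mgp had 1220.3, 1898 and 1571 CPM in Choroid Positive and 705, 650.3 and 856 CPM in Choroid Input libraries, against 796, 742 and 751 CPM in Brain Positive and 34.9, 24.9 and 24.6 CPM in Brain Input libraries. It was above Input in both tissues, and its Input level was far higher in Choroid. The venous factor Nr2f2 (COUP-TFII) fell in Choroid (-1.12 ± 0.18) and rose in Brain (1.32 ± 0.16), an interaction of -2.44 ± 0.24. The venous receptor Ephb4 rose in both, with an interaction of -1.70 ± 0.36.

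Notch genes were mixed, with 4 of 9 higher, 3 lower and a median of 0.30 that became -0.15 under the authors' factors. Over all genes 22.4% were higher and 25.7% lower. Nrarp, a Notch target that dampens the pathway, had 336, 271 and 271 CPM in Choroid Positive and 72.3, 34.3 and 51.9 CPM in Choroid Input libraries, against 42.7, 30.4 and 30.2 CPM in Brain Positive and 38.3, 26.2 and 31.9 CPM in Brain Input libraries. Choroid Positive was above every other library, and the Brain fractions overlapped, an interaction of 2.36 ± 0.33 (adjusted p = 5.4e-05). The ligand Jag2 was higher at 0.95 ± 0.25 and Hes1 at 0.52 ± 0.20, and both lost their calls under the authors' factors and under library totals. The ligands Jag1 and Dll4 were lower at -2.32 ± 0.32 and -1.48 ± 0.32, and the receptor Notch4 at -1.02 ± 0.34. Notch4 was -0.65 without a call when replicate 3 of Choroid Input was left out (adjusted p = 0.0843), and its call was also lost without replicate 2 or 3 of Brain Positive or replicate 2 of Brain Input. Jag1 rose in Brain (2.40 ± 0.22) and was 0.09 ± 0.23 in Choroid. The receptor Notch1 had no call at 0.30 ± 0.40.

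Of 9 VEGF receptors and ligands, 3 of which had met the Choroid minimum through Input alone, 7 were lower and 0 higher, with a median of -1.74. Kdr (VEGFR2), the main signalling receptor for VEGF-A, had 4416, 2884 and 4214 CPM in Choroid Positive and 598, 228 and 614 CPM in Choroid Input libraries, against 248, 249 and 252 CPM in Brain Positive and 9.14, 8.56 and 9.88 CPM in Brain Input libraries. Choroid Positive exceeded Brain Positive by 3.94 ± 0.31 and Choroid Input exceeded Brain Input by 5.71 ± 0.34, an interaction of -1.77 ± 0.40 (adjusted p = 0.0025). Flt1 (VEGFR1) was lower at -2.27 ± 0.32 and Flt4 (VEGFR3) at -1.68 ± 0.37. The ligand Vegfa, which the pigment epithelium and glia make, fell in both tissues, -2.46 ± 0.18 in Choroid against -1.42 ± 0.16 in Brain, an interaction of -1.04 ± 0.24. The ligand Pgf (placental growth factor) fell in Choroid (-3.38 ± 0.33) and rose in Brain (0.91 ± 0.26). The coreceptors Nrp1 and Nrp2 had no call, at -0.33 ± 0.24 and -0.32 ± 0.29. Among tip cell genes, 4 of 6 were lower and 0 higher, against 25.7% lower and 22.4% higher over all genes. Of these 6, 2 had met the Choroid minimum through Input alone. Only 1 member was at that minimum or above in all libraries, and it was lower. The count of 4 is therefore not read as support. Angpt2, a Tie2 ligand, was lower at -2.35 ± 0.39.

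Caveolar genes were lower for 4 of 7 and higher for 1, against 25.7% lower and 22.4% higher over all genes. The list median was -1.80. Ptrf (cavin 1), which coats caveolae, had 651, 531 and 585 CPM in Choroid Positive and 243, 220.4 and 202 CPM in Choroid Input libraries, against 649.8, 631 and 589 CPM in Brain Positive and 29.6, 25.2 and 24.6 CPM in Brain Input libraries. The Positive levels were alike and the Input levels were not, an interaction of -3.14 ± 0.19 (adjusted p = 2.1e-08). Cav1 was lower at -2.14 ± 0.23, whereas Cav2 had no call at -0.61 ± 0.26 (adjusted p = 0.062). Cav2 passed as lower in 12 other settings. Among them were the authors' factors (-1.08), library totals (-0.85), the DESeq2 Wald test (-0.63) and the fit without replicate 2 of both Choroid fractions (-0.87). Under the authors' factors 5 of the 7 caveolar genes were lower and 0 higher. Pacsin2 was the higher member at 0.74 ± 0.20, without a call under the authors' factors, where it was 0.28.

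Of 11 vasoregulation and coagulation genes, 7 were lower and 3 higher, with a median of -2.56. In Choroid 4 of the 11 had met the minimum through Input alone. Among the 6 at 50 or more in all 12 libraries, 3 were lower and 2 higher, with a median of -0.81. Ptgis (prostacyclin synthase) had 78.8, 74.2 and 68.3 CPM in Choroid Positive and 141, 119.9 and 149 CPM in Choroid Input libraries, against 75.97, 92.4 and 77.1 CPM in Brain Positive and 5.83, 5.44 and 4.11 CPM in Brain Input libraries. It fell in Choroid (-0.89 ± 0.17) and rose in Brain (4.00 ± 0.18), an interaction of -4.89 ± 0.24 (adjusted p = 4.0e-09). The anticoagulant receptor Thbd (thrombomodulin) was lower at -3.13 ± 0.31, the vasoconstrictor Edn1 (endothelin 1) at -2.56 ± 0.37 and Nos3 (endothelial nitric oxide synthase) at -1.74 ± 0.22. Against them, the cyclooxygenase Ptgs1 was higher at 2.92 ± 0.45 (adjusted p = 0.00012), at 2.43 ± 0.34 in Choroid against -0.49 ± 0.30 in Brain. The endothelin receptor Ednrb was higher at 2.01 ± 0.30 and Ace (angiotensin-converting enzyme) at 1.00 ± 0.30. Ace lost its call under the authors' factors.

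Leukocyte adhesion and sialomucin genes were lower for 7 of 8, with a median of -1.72. Pecam1, Emcn and Cd34 of this list are also on the pan-endothelial list. The adhesion molecules Icam2, Icam1 and Vcam1 were lower at -2.06 ± 0.28, -1.72 ± 0.44 and -1.35 ± 0.41. The GTPase genes Gimap1, Gimap4 and Gimap6 were lower at -1.53 ± 0.23, -1.82 ± 0.57 and -2.14 ± 0.31, and Gimap8 had no call at -0.60 ± 0.34. All 4 rose in both tissues.

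Basement membrane genes were lower for 8 of 17 and higher for 1, with a median of -0.84. The shares over all genes were 25.7% lower and 22.4% higher. The laminin gene Lamb2 had 912, 887 and 914 CPM in Choroid Positive and 402, 298 and 349 CPM in Choroid Input libraries, against 464, 570.0 and 483 CPM in Brain Positive and 49.3, 51.4 and 50.5 CPM in Brain Input libraries, an interaction of -1.96 ± 0.19 (adjusted p = 1.5e-06). Its groups did not overlap within either tissue. The type IV collagen chains rose in both tissues and had no call for the difference. Col4a2 was 2.28 ± 0.24 in Choroid against 2.26 ± 0.24 in Brain, a difference of 0.02 ± 0.32. Col4a1 was -0.68 ± 0.32 (adjusted p = 0.099). With the replicate number as a block Col4a1 was -0.67 and passed (adjusted p = 0.00495), and it was -0.77 and passed without replicate 2 of both Choroid fractions (adjusted p = 0.014). Lama5 was the higher member at 1.03 ± 0.40 (adjusted p = 0.049), a call kept in 9 of 25 other settings and lost in the rest, among them without replicate 2 of both Choroid fractions.

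Antigen presentation and interferon genes were less enriched in Choroid. All 10 measured MHC class I presentation genes rose in Positive in both tissues, and 9 were lower and 0 higher, with a median of -1.93. B2m, the light chain of MHC class I (chr2:122147687-122153082, plus strand), had 2407, 1915 and 2841 CPM in Choroid Positive and 1382, 961 and 1229 CPM in Choroid Input libraries, against 889, 801 and 892 CPM in Brain Positive and 97.3, 77.5 and 96.9 CPM in Brain Input libraries. Positive exceeded Input in both tissues without overlap, by 1.00 ± 0.18 in Choroid and 3.25 ± 0.19 in Brain, an interaction of -2.24 ± 0.25 (adjusted p = 5.8e-06). The immunoproteasome subunits Psmb9 and Psmb8 were lower at -2.66 ± 0.31 and -2.46 ± 0.40, and Psmb10 had no call at 0.41 ± 0.26. The heavy chain H2-D1 was lower at -1.32 ± 0.30. Reads of near-identical class I heavy chain copies can be split in counting, so single values of H2 genes are uncertain.

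All 10 measured interferon-stimulated genes were lower, with a median of -3.89. All 10 rose in Brain, with a median of 3.78. In Choroid 3 rose and 3 fell, with a median of 0.05. Ifit1, an RNA-binding antiviral protein (chr19:34640889-34650009, plus strand), had 9.71, 6.901 and 22.5 CPM in Choroid Positive and 63.6, 49.3 and 44.1 CPM in Choroid Input libraries, against 89.7, 64.6 and 55.7 CPM in Brain Positive and 7.57, 3.74 and 3.49 CPM in Brain Input libraries. Positive was below Input in all Choroid pairs and above it in all Brain pairs, an interaction of -5.76 ± 0.53 (adjusted p = 9.5e-07). Ifit3 had 53.98, 48.3 and 60.1 CPM in Choroid Positive and 173, 183 and 165 CPM in Choroid Input libraries, against 224, 182 and 156 CPM in Brain Positive and 31.98, 16.95 and 19.4 CPM in Brain Input libraries, an interaction of -4.70 ± 0.32. Choroid Input and Brain Positive overlapped, and Brain Input was lowest.

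The factors of the response were also lower, Irf7 at -4.27 ± 0.39 and Irf9 at -1.80 ± 0.22, as was the ubiquitin-like modifier Isg15 at -4.21 ± 0.46. In Choroid 5 of the 10 had met the minimum through Input alone. Of the 5 at 50 or more in all 12 libraries all 5 were lower. The list's summed share was 0.122% to 0.154% in Choroid Positive and 0.101% to 0.115% in Choroid Input, against 0.120% to 0.142% in Brain Positive and 0.0106% to 0.0157% in Brain Input. It was of like size in 3 groups and about an order of magnitude lower in Brain Input.

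The 250 bases before the RefSeq transcription starts of the genes (GRCm38.p6, the assembly of mm10) were searched on both strands, with overlapping matches counted. The letters sought were those of an interferon-stimulated response element, GAAA, any 2 bases and GAAA again. Of 9 interferon-stimulated genes with a promoter in the table, 5 held a match (55.6%), as did 2 of 9 MHC class I genes (22.2%), B2m and H2-T23. Over the 6005 tested genes with a promoter, 189 (3.15%) held a match, and 0 of 13 pan-endothelial and 0 of 6 fibroblast genes did. The sequences of 4 of these promoters follow in the direction of transcription, with the matches in capitals, because the genes were lower in the interaction and carry the match. A match is a description of letters and not a bound site, and its link to the interaction was not tested.
Ifit1 (chr19:34640639-34640888, plus strand): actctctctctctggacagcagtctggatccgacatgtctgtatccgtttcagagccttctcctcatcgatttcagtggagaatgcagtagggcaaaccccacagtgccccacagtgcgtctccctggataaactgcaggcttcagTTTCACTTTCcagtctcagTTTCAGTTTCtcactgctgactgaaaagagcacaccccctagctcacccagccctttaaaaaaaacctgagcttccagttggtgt
Ifit3 (chr19:34583279-34583528, plus strand): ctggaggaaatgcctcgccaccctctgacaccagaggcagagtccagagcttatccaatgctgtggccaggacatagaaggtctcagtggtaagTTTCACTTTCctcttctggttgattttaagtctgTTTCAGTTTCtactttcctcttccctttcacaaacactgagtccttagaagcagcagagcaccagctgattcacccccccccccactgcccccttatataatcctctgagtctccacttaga
Isg15 (chr4:156200819-156201068, minus strand): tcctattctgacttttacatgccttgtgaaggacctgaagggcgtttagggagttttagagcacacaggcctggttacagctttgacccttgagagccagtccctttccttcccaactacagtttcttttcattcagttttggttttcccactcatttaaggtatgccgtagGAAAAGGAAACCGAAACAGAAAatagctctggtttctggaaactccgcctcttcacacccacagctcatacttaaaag
B2m (chr2:122147437-122147686, plus strand): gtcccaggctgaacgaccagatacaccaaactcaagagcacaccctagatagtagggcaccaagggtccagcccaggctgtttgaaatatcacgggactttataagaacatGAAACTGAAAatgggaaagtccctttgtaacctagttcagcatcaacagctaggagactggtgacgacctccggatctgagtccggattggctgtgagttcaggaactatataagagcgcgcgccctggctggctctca
In Ifit1 and Ifit3 the capitals are the reverse complement of the motif, 2 matches each. Isg15 holds 3 overlapping matches, and B2m holds 1.

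Across the whole table, the genes with the largest higher values, among those at or above the median level with non-overlapping same-numbered differences, were Cadps2, Aqp1, Stk32c, Prickle2, Six3, Mcam, Shank3, Car8, Prex1, Ramp3, Atp2b4, Cx3cl1, Gda and Ldb2. Their interactions ran from 3.34 to 4.36. All 14 rose in Choroid, and 13 of the 14 fell in Brain, the exception being Ramp3. Mcam, the endothelial and mural adhesion protein CD146, had 836, 916 and 915 CPM in Choroid Positive and 171, 96.5 and 162 CPM in Choroid Input libraries, against 25.2, 22.5 and 26.2 CPM in Brain Positive and 43.7, 48.5 and 47.3 CPM in Brain Input libraries. The Choroid fractions were far apart, and the Brain fractions lay close together in the other order, an interaction of 3.54 ± 0.25 (adjusted p = 9.6e-08).

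Cx3cl1 (fractalkine), a chemokine that neurons also make, had 1433, 1009 and 1358 CPM in Choroid Positive and 262, 207 and 224 CPM in Choroid Input libraries, against 387, 389 and 394 CPM in Brain Positive and 689, 781 and 715 CPM in Brain Input libraries. It rose in Choroid (2.46 ± 0.15) and fell in Brain (-0.90 ± 0.15), an interaction of 3.36 ± 0.21 (adjusted p = 3.1e-08). Ramp3, an accessory subunit of the adrenomedullin receptor, had 330.5, 436 and 488 CPM in Choroid Positive and 45.98, 46.8 and 57.7 CPM in Choroid Input libraries, against 29.3, 26.98 and 19.4 CPM in Brain Positive and 41.3, 31.7 and 23.3 CPM in Brain Input libraries, an interaction of 3.39 ± 0.32. Its Brain fractions overlapped. Six3, a homeobox factor of eye and forebrain development, had 2045, 1625 and 1469.7 CPM in Choroid Positive and 384, 377 and 415 CPM in Choroid Input libraries, against 11.5, 10.2 and 6.596 CPM in Brain Positive and 32.6, 27.8 and 20.7 CPM in Brain Input libraries, an interaction of 3.65 ± 0.30. Six3 was far above its Brain levels in both Choroid fractions. Prickle2, a planar polarity protein, was higher at 3.72 ± 0.32, the Rac exchange factor Prex1 at 3.40 ± 0.26 and the calcium pump Atp2b4 at 3.39 ± 0.45. Cadps2, which primes vesicles for release, had the largest value, 4.36 ± 0.52, and had 43.5, 121 and 32.6 CPM in Choroid Positive, where replicate 2 was highest, and 8.097, 12.4 and 6.097 CPM in Choroid Input, against 57.5, 63.3 and 60.5 CPM in Brain Positive and 149, 184 and 187 CPM in Brain Input. Neuronal markers fell in Brain Positive in all 6 measured cases, with a summed share of 0.352% to 0.394% in Brain Positive against 0.982% to 1.05% in Brain Input, and their part in the Brain falls of Cx3cl1, Stk32c, Shank3, Cadps2 and Gda was not tested.

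The 14 genes with the largest lower values under the same rule included Slc6a20a, Edn3, Wfikkn2, Lum, Fmod, Slc6a13, Mfsd7c, Stra6, Slco1c1, Ogn, Slc22a8, Pglyrp1 and Fbln1, and the 14 values ran from -8.31 to -6.91. Of these 14, 13 had met the minimum in Choroid through Input alone, all but Stra6. Each of the 13 had to be under that minimum in some Choroid Positive library to be listed this way. Their low Choroid ratios are therefore partly set by the listing. Neither those ratios nor the size of the 13 interactions is read as support, and the levels below are descriptions. Slc6a20a, a proline transporter, had 20.97, 10.4 and 8.14 CPM in Choroid Positive and 263, 215 and 298 CPM in Choroid Input libraries, against 249, 348 and 259 CPM in Brain Positive and 15.9, 15.6 and 16.3 CPM in Brain Input libraries. Choroid Input and Brain Positive were of like size, and the other groups were far lower, an interaction of -8.31 ± 0.35 (adjusted p = 1.5e-09). Stra6, the cell surface receptor for retinol-binding protein and a pigment epithelium gene in the eye, had 172, 96.6 and 117 CPM in Choroid Positive and 788, 1043 and 1129.9 CPM in Choroid Input libraries, against 207, 189 and 189 CPM in Brain Positive and 11.1, 8.86 and 9.94 CPM in Brain Input libraries. It was enriched in Brain Positive by 4.30 ± 0.21 and was -2.90 ± 0.20 in Choroid, an interaction of -7.20 ± 0.29.

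Edn3 (endothelin 3) had 125, 62.1 and 41.96 CPM in Choroid Positive and 799, 479 and 748 CPM in Choroid Input libraries, against 238, 214 and 182 CPM in Brain Positive and 11.4, 8.86 and 8.77 CPM in Brain Input libraries, an interaction of -7.54 ± 0.46. The GABA transporter Slc6a13 was lower at -7.27 ± 0.25. Mfsd7c, a carrier also named Flvcr2, had 29.9, 70.7 and 82.7 CPM in Choroid Positive and 307, 315 and 417 CPM in Choroid Input libraries, against 63.3, 66.02 and 63.97 CPM in Brain Positive and 2.698, 2.08 and 2.83 CPM in Brain Input libraries, an interaction of -7.24 ± 0.41. Pglyrp1, a peptidoglycan-binding protein, had the widest error of the 14 at -6.95 ± 0.87, and its Choroid fractions overlapped, at 7.77, 12.1 and 9.39 CPM in Choroid Positive and 31.8, 68.2 and 5.79 CPM in Choroid Input.

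Lum (lumican), Ogn (osteoglycin), Fmod (fibromodulin) and Fbln1 (fibulin 1) on that list are matrix genes of connective tissue. All 10 measured fibroblast genes were lower, the lowest median of any list at -6.61. All 10 fell in Choroid, with a median of -2.61, and all 10 rose in Brain, with a median of 4.05. Col1a1, a chain of type I collagen (chr11:94936270-94951856, plus strand), had 101, 121 and 78.9 CPM in Choroid Positive and 641, 538 and 544 CPM in Choroid Input libraries, against 325, 525 and 396 CPM in Brain Positive and 23.98, 25.8 and 25.7 CPM in Brain Input libraries. Choroid Input was highest, Brain Positive lay below it without overlap, and both stood above the other groups, an interaction of -6.59 ± 0.28 (adjusted p = 1.5e-09). Col1a2 had 143, 145 and 112 CPM in Choroid Positive and 841, 831 and 815 CPM in Choroid Input libraries, against 654, 1040.0 and 827 CPM in Brain Positive and 45.5, 48.3 and 52.8 CPM in Brain Input libraries, an interaction of -6.75 ± 0.25. Dcn (decorin) was lower at -6.60 ± 0.47 and Pdgfra, a fibroblast receptor, at -3.89 ± 0.48. The summed share of the list was 0.0460% to 0.0728% in Choroid Positive and 0.389% to 0.494% in Choroid Input, against 0.285% to 0.396% in Brain Positive and 0.0227% to 0.0243% in Brain Input. In Choroid 6 of the 10 had met the minimum through Input alone, and the 4 at 50 or more in all 12 libraries were all lower, with a median of -6.72. These genes moved in Brain Positive together with the endothelial lists, and the part of cells other than endothelium in Brain Positive was not tested.

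**Figure D5:**
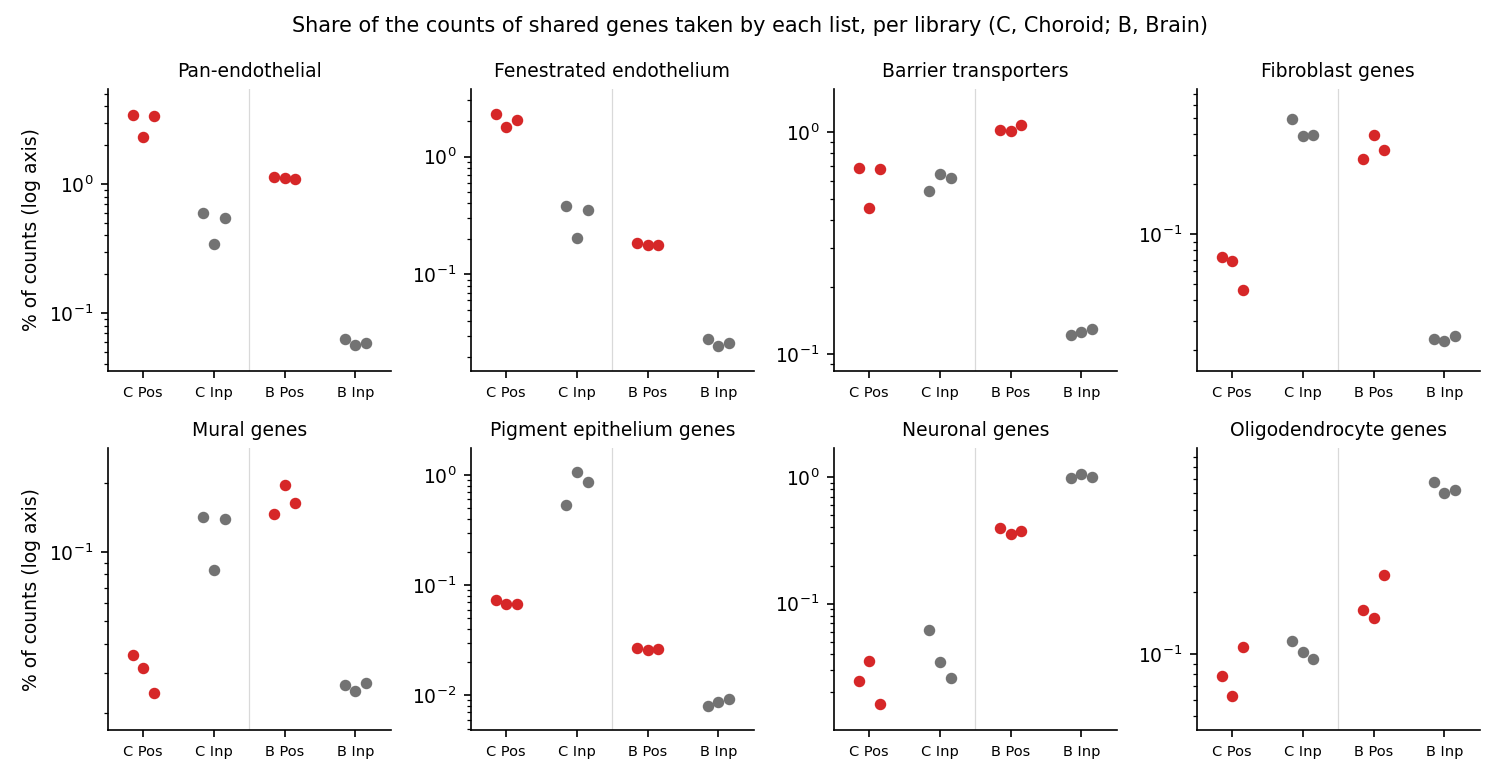
Share of the counts of the 7461 shared genes (percent, log axis) taken by 8 gene lists in each of the 12 libraries, with Choroid Positive, Choroid Input, Brain Positive and Brain Input from left to right. Pan-endothelial and fenestrated endothelium genes are above Input in Positive in both tissues. Fibroblast and mural genes are above Input in Brain Positive and below it in Choroid Positive, and neuronal and oligodendrocyte genes are below Input in Brain Positive.

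Mural genes were lower for 7 of 11 and higher for 0, with a median of -2.19. In Choroid 8 fell and 0 rose, and in Brain 5 rose and 4 fell, so the markers split in Brain. Pdgfrb, the pericyte receptor for PDGF-B, had 40.002, 0 and 16.3 CPM in Choroid Positive and 267, 168 and 299.8 CPM in Choroid Input libraries, against 78.9, 118 and 87.1 CPM in Brain Positive and 26.5, 30.3 and 26.9 CPM in Brain Input libraries, an interaction of -5.13 ± 0.58. It was at 0 in Choroid Positive replicate 2. Anpep (aminopeptidase N) was lower at -4.77 ± 0.41, and both Pdgfrb and Anpep rose in Brain. Rgs5 was lower at -2.09 ± 0.71 (adjusted p = 0.026), but in Brain it was -0.91 ± 0.47. Its call was lost without replicate 3 of Choroid Positive, replicates 1 or 3 of Choroid Input, replicate 1 of Brain Positive or replicate 1 of Brain Input. Kcnj8, Cspg4, Myh11 and Abcc9 had no call, from -0.21 to 1.08. In Choroid 10 of the 11 had met the minimum through Input alone, and the single member at 50 or more in all 12 libraries had no call, and the count of 7 is not read as support.

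Markers of the epithelium over the choriocapillaris were low in Choroid Positive. Of 6 measured pigment epithelium genes, 5 fell and 0 rose in Choroid, and 5 were lower and 0 higher in the interaction. Rlbp1, the retinaldehyde-binding protein, had 184, 319 and 167 CPM in Choroid Positive and 2032, 4329 and 3656 CPM in Choroid Input libraries, against 6.35, 9.08 and 10.2 CPM in Brain Positive and 23.02, 24.9 and 26.2 CPM in Brain Input libraries. It fell in both tissues, -3.94 ± 0.31 in Choroid against -1.53 ± 0.29 in Brain, an interaction of -2.41 ± 0.40 (adjusted p = 0.00024). Rdh5, a retinol dehydrogenase, was lower at -2.37 ± 0.40. Mertk had no call at 0.10 ± 0.36. Rpe65, Rgr, Rrh and Lrat were listed for Choroid alone. Both measured melanocyte genes fell in Choroid, with Mitf lower at -1.71 ± 0.31 and Gpnmb at -1.88 ± 0.63. The Gpnmb call was lost without replicate 1 of Choroid Input (-1.54, adjusted p = 0.0618) and without replicate 2 of Brain Input (adjusted p = 0.0551). All 3 measured photoreceptor genes were lower, but 2 of them had met the Choroid minimum through Input alone and none was at 50 or more in all 12 libraries, and the count is not read as support. Pde6a, a subunit of the rod phosphodiesterase, had 25.6, 22.4 and 6.89 CPM in Choroid Positive and 84.2, 60.7 and 96.3 CPM in Choroid Input libraries, against 5.38, 5.81 and 4.86 CPM in Brain Positive and 0.653, 0.497 and 0.571 CPM in Brain Input libraries, an interaction of -5.37 ± 0.50. Of the lymphatic list, Flt4 and Pdpn were measured and both were lower. Pdpn (podoplanin), also a gene of other stromal cells, was lower at -6.03 ± 0.31. The defining lymphatic markers Prox1 and Lyve1 did not enter.

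Markers of neural tissue split by cell type. Oligodendrocyte genes were higher for 4 of 6 and lower for 1, with a median of 1.91, and in Choroid 4 of the 6 had met the minimum through Input alone. Mbp (myelin basic protein) had 69.9, 147 and 145 CPM in Choroid Positive and 183, 162 and 75.3 CPM in Choroid Input libraries, against 511, 405 and 819 CPM in Brain Positive and 3480.1, 2905 and 2942 CPM in Brain Input libraries. The Choroid fractions overlapped, and Brain Positive was below Brain Input without overlap, an interaction of 2.19 ± 0.49 (adjusted p = 0.0022). Cnp, a myelin enzyme, was higher at 2.01 ± 0.45. Mal differed from both in that it rose in Choroid. It had 554, 454 and 753 CPM in Choroid Positive and 177, 60.2 and 113 CPM in Choroid Input libraries, against 439.5, 352 and 454 CPM in Brain Positive and 354, 342 and 329 CPM in Brain Input libraries, and was 2.32 ± 0.29 in Choroid against 0.28 ± 0.27 in Brain, an interaction of 2.04 ± 0.40. Ermn was lower at -1.34 ± 0.49, without a call with the replicate block and without replicate 2 of both Choroid fractions. The list's summed share was 0.0627% to 0.108% in Choroid Positive and 0.0942% to 0.116% in Choroid Input, against 0.150% to 0.240% in Brain Positive and 0.601% to 0.677% in Brain Input.

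Of 6 neuronal genes only Stmn2 (stathmin 2) had a call. It had 139.8, 116 and 118 CPM in Choroid Positive and 61.3, 23.9 and 21.6 CPM in Choroid Input libraries, against 263, 232 and 237 CPM in Brain Positive and 632, 593 and 602 CPM in Brain Input libraries, higher at 3.15 ± 0.40 (adjusted p = 2.1e-05). It rose in Choroid (1.83 ± 0.30) and fell in Brain (-1.32 ± 0.27). Snap25 and Syt1 were -0.38 ± 0.65 and -0.16 ± 0.45. Without replicate 2 of both Choroid fractions Syt1 was -0.90 and passed as lower. Of 8 astrocyte genes, 4 of which had met the Choroid minimum through Input alone, 5 were lower and 0 higher, with Sox9 at -2.13 ± 0.35 and Aldh1l1 at -1.65 ± 0.29. Slc1a2, the glutamate transporter GLT-1, was 1.46 ± 0.61 (adjusted p = 0.061), and 1.60 with the replicate block, where it passed (adjusted p = 0.0415). Of 11 microglia and macrophage genes 4 were lower and 0 higher, against 25.7% lower and 22.4% higher over all genes. Tmem119 was lower at -3.11 ± 0.43, whereas Csf1r, Cd68 and Ptprc had no call. In Choroid 10 of those 11 had met the minimum through Input alone and the single member at 50 or more in all 12 libraries had no call, so the count of 4 is not read as support. Erythroid genes fell in both tissues and had no call, at 0.17 ± 0.75 for Hba-a1, whose near-identical copy Hba-a2 can share its reads.

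Of 3 Schwann cell genes, Pmp22 was lower at -2.41 ± 0.18, and Sox10 and Cdh19 had no call. Choroid plexus genes were lower for 3 of 6 and higher for 0. Of these 6, 3 had met the authors' minimum in Choroid through Input alone. Among the 3 at that minimum or above in all libraries, 2 were lower and 0 higher. The count of 3 lower genes is therefore not read as support. The potassium channel Kcnj13, also a gene of pigment epithelium, had 70.3, 48.3 and 35.1 CPM in Choroid Positive and 437, 482 and 662 CPM in Choroid Input libraries, against 25.1, 37.5 and 30.1 CPM in Brain Positive and 7.61, 6.49 and 5.599 CPM in Brain Input libraries, an interaction of -5.56 ± 0.35. Ttr (transthyretin), a defining gene of that epithelium and also made by pigment epithelium, had 1423, 2424 and 977 CPM in Choroid Positive and 10837, 20373 and 12565 CPM in Choroid Input libraries, against 148, 108 and 341 CPM in Brain Positive and 1359.9, 949.8 and 1067 CPM in Brain Input libraries. It fell in both tissues, and the difference had no call at -0.69 ± 0.57. The muscle gene Acta1 had no call at -0.84 ± 0.69, and no platelet gene entered.

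Immediate early genes, which cells switch on within minutes of a stimulus, were higher for 5 of 8 and lower for 2, with a median of 1.18. All genes together had 22.4% higher and 25.7% lower. Junb had 108, 96.6 and 170.3 CPM in Choroid Positive and 50.9, 34.8 and 41.5 CPM in Choroid Input libraries, against 74.5, 57.5 and 55.1 CPM in Brain Positive and 104, 91.6 and 70.6 CPM in Brain Input libraries. It rose in Choroid (1.57 ± 0.24) and was -0.51 ± 0.21 in Brain, an interaction of 2.07 ± 0.32 (adjusted p = 0.00012). Egr1 had 39.6, 98.3 and 135 CPM in Choroid Positive and 45.98, 68.7 and 39.2 CPM in Choroid Input libraries, against 87.7, 71.2 and 74.4 CPM in Brain Positive and 255, 281 and 243 CPM in Brain Input libraries. Its Choroid fractions overlapped and its Brain Positive libraries were below Brain Input, an interaction of 2.56 ± 0.45 (adjusted p = 0.00037). Nr4a1 was higher at 2.41 ± 0.53, Jun at 1.32 ± 0.23 and Dusp1 at 1.04 ± 0.32. The mRNA decay factor Zfp36 was lower at -2.10 ± 0.28 and Btg2 at -1.16 ± 0.28. Fos, Fosb and Atf3 were listed for Brain alone.

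Nuclear and long non-coding RNAs were higher for 3 of 6 and lower for 0, with a median of 1.26. The higher count was 5 of 6 with the replicate block, 2 of 6 under library totals and 1 of 6 under the authors' factors, where the median was 0.82. In Choroid 3 of the 6 had met the minimum through Input alone. All 6 fell in Brain, and in Choroid 1 rose and 1 fell. Kcnq1ot1 had 147, 466 and 304 CPM in Choroid Positive and 157, 235 and 111 CPM in Choroid Input libraries, against 76.1, 64.3 and 92.04 CPM in Brain Positive and 228, 240.1 and 218 CPM in Brain Input libraries, an interaction of 2.40 ± 0.47 (adjusted p = 0.00077). Choroid Positive replicate 2 had its highest value. Malat1 was higher at 1.32 ± 0.39, and 0.86 without a call under the authors' factors (adjusted p = 0.0551). Neat1 had no call at -0.24 ± 0.33. Snhg11 was 1.79 ± 0.69 (adjusted p = 0.044), and its call is not stable: it passed in 12 of 25 other settings, and was lost under the authors' factors, under library totals and without any of 7 single libraries.

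Against the 48.1% of all genes with a call, few ribosomal protein genes had one in the fit reported. Of 80 ribosomal protein genes 6 were lower and 0 higher, with a median of -0.08 that was -0.56 under the authors' factors, where 34 were lower. Leaving out replicate 2 of both Choroid fractions gave 20 lower. Rps27l had the largest value, -1.93 ± 0.30. Of 72 respiratory chain genes 14 were lower and 2 higher, with a median of -0.43. The count of lower genes was 24 with the replicate block, 46 under the authors' factors, and 35 without replicate 2 of both Choroid fractions. Over all 7461 genes these settings gave 2029, 2837 and 2499 lower, against 1921 in the fit reported. The larger counts of both lists are to be set against these and are not read as results about the lists. Of 13 glycolysis genes 5 were lower and 2 higher, with a median of 0.03 that became -0.41 under the authors' factors. Apart from Slc2a1, glycolysis values ran from -0.83 for Pfkl to 0.75 for the hexokinase Hk1, whose call was lost under the authors' factors and under library totals.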

How the data were processed

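RNA of the Positive and Input fractions of Choroid and Brain was sequenced in 3 libraries per group. Per the file headers, the authors deposited raw estimated counts and log2 normalized values for each tissue in separate tables, listing genes with a raw value of at least 50 in all libraries of at least 1 fraction. Build mm10 and the tool DESeq are named in the submitters' processing notes. The aligner, the counter and the strand setting were not given in the sources used here, so antisense, overlapping and near-identical genes are uncertain. Estimated counts were rounded, joined on gene ID, scaled by TMM and fitted with edgeR 4.0.16 (quasi-likelihood test, limma 3.58.1, R 4.3.3) with a mean per group, which left 8 residual degrees of freedom. filterByExpr with a minimum count of 10 removed 0 genes. P-values were adjusted by Benjamini and Hochberg over all genes, with a threshold of 0.05. The SE is the absolute log2 value over the square root of F. Same-numbered differences used log2(CPM + 0.5). The code was tested on simulated data. Counts limit precision most in Choroid Positive replicate 2.

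Input and Positive of a number come from the same homogenate per the labels' protocol, so the numbers pair the fractions. The fit reported did not use this pairing, because the labels' design text names no paired test. Its SE and adjusted p-values are therefore unpaired, and the replicate block was run as an alternative. Deviations of the paired fractions from the group means correlated at 0.179, 0.202 and 0.139 in Choroid and 0.228, 0.0449 and 0.292 in Brain. Between different numbers the correlations ran from -0.2 to 0.0779 in Choroid and from -0.256 to 0.0941 in Brain. Genes were named by a rule: the 14 largest values in each direction among called genes at or above the median level with non-overlapping same-numbered differences, leaving out predicted and pseudogene symbols, the first 2 and the 2 largest values of each list, Cdh5 and Rpl10a. A few genes that the rule or the lists name are not reported here. Other list members were named after their values were seen. Members and lists were chosen with earlier results of these data known. Alternatives were other scalings, filters and tests (DESeq2 1.42.0, limma-voom, glmTreat), a replicate block, all 18 libraries, and each library left out. The fit without replicate 2 of both Choroid fractions was chosen after seeing the data. Coordinates and promoters are RefSeq's on GRCm38.p6. The Retina libraries entered no comparison.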

Additional observations from a re-analysis of the deposited data

Results flagged for a closer look

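For 45 of the genes named by the rule and reported here, all 3 same-numbered Positive minus Input differences in Choroid had the opposite sign to all 3 in Brain, and the interaction itself passed the threshold. All values are the interaction on the log2 scale.

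In 16 of these genes Positive was above Input in Choroid and below it in Brain. They were Cadps2 (4.36), Aqp1 (3.95), Stk32c (3.80), Prickle2 (3.72), Six3 (3.65), Mcam (3.54), Shank3 (3.50), Car8 (3.44), Prex1 (3.40), Ramp3 (3.39), Atp2b4 (3.39), Cx3cl1 (3.36), Gda (3.34), Ldb2 (3.34), the neuronal gene Stmn2 (3.15) and the immediate early gene Junb (2.07).

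In the other 29 Positive was below Input in Choroid and above it in Brain. The transporters and secreted proteins were Slc6a20a (-8.31), Edn3 (-7.54), Wfikkn2 (-7.49), Slc6a13 (-7.27), Mfsd7c (-7.24), Slco1c1 (-7.02), Slc22a8 (-6.98) and Mfsd2a (-4.78). The matrix and mural genes were Lum (-7.49), Fmod (-7.33), Ogn (-7.02), Fbln1 (-6.91), Col1a1 (-6.59), Col1a2 (-6.75), Fbln5 (-4.37), Pdgfrb (-5.13) and Anpep (-4.77). Genes on endothelial or interferon lists were Nr2f2 (-2.44), Pgf (-4.29), Ptgis (-4.89), Ifit1 (-5.76) and Ifit3 (-4.70). Genes on lists of other cell types were Stra6 (-7.20), Pde6a (-5.37), Tmem119 (-3.11), Pdpn (-6.03), Pmp22 (-2.41) and Kcnj13 (-5.56). The respiratory chain gene Cox6b2 was -4.98. Most of the 14 genes with the largest lower values are in this group, and 13 of those 14 had met the authors' minimum in Choroid through Input alone. Such genes had to be under that minimum in some Choroid Positive library. The same holds for any other of the 29 genes listed for Choroid through Input alone. Pdgfrb, without counts in Choroid Positive replicate 2, is among them. For all such genes, the place below Input in Choroid is therefore not read as support for a difference between the tissues.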

How the results depend on the processing

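No gene called in either direction was called in the opposite direction under any alternative. Of 3617 values of 138 named genes under the alternatives, 3498 kept their side of the threshold, 73 lost the call and 45 gained it. The 3498 include any change of sign between values without a call. The 1 left changed sign and passed: Rpl10a under the authors' factors, at -0.45 (adjusted p = 0.0447). The cause was not tested. The authors' factors moved the median of all genes by -0.453, library totals by -0.224 and leaving out replicate 2 of both Choroid fractions by -0.124. Against 1670 higher and 1921 lower, the interaction had 1080 higher under library totals, 680 higher under the authors' factors and 1089 higher at an adjusted p under 0.01. Fewer genes were tested at or above the median level, with 869 higher and 1111 lower, and at 50 or more in all 12 libraries, with 817 higher and 817 lower. Those 2 filters gave 1050 and 831 genes that rose and 1147 and 806 that fell in Choroid, and 1120 and 847 that rose and 1336 and 1152 that fell in Brain. The test for more than 2-fold gave 333 higher and 993 lower for the interaction, 556 that rose and 814 that fell in Choroid, and 917 that rose and 302 that fell in Brain. The authors' factors gave 1238 that fell in Brain.

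Leaving out 1 library at a time gave 1362 to 1740 higher and 1705 to 2372 lower, the most lower without Choroid Positive replicate 2. Leaving out replicate 2 of both Choroid fractions, chosen after seeing the data, gave 1782 higher and 2499 lower. The DESeq2 Wald test gave 1896 higher and 2105 lower. With the replicate block, 1823 were higher and 2029 lower. Of the named genes, Col4a1 (-0.67) and Slc1a2 (1.60) gained a call under the block, and the list counts given above with the block changed. Depth limits small differences most in Choroid Positive replicate 2, so values without a call are not shown to be equal.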
